A study of Mus musculus with 8 samples.

Results

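The transcripts of 10 components of hepatic insulin signaling were compared between the livers of *Agpat3* WT and *Agpat3* KO mice. They comprise the insulin receptor *Insr*, the receptor substrates *Irs1* and *Irs2*, the PI3K subunit *Pik3r1*, the kinases *Akt1* and *Akt2*, the pseudokinase *Trib1*, the transcription factors *Foxo1* and *Foxo3*, and *Igfbp1*, a target gene of the pathway. They were chosen by gene symbol for their place in the pathway, and every array probe whose transcript accession maps to one of the symbols was taken. This gave 10 of the 22911 genes named by a probe of the array, and 16 of its 56605 probes without controls. AGPAT3 is an acyltransferase of phospholipid synthesis that prefers docosahexaenoic acid, and the KO mice lack it. Both groups were male C57BL/6 mice of 10 weeks, and 4 livers of each genotype were hybridized 1 per array to one-color Agilent arrays (n = 4 *Agpat3* WT, n = 4 *Agpat3* KO). The labels give no treatment, do not give the feeding state at collection, and name no tissue restriction of the deletion.

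When insulin binds its receptor on hepatocytes, the receptor phosphorylates the IRS adaptors, which recruit PI3K and thereby activate AKT. AKT phosphorylates the FOXO factors, which then leave the nucleus, so that FOXO target genes such as *Igfbp1*, *Irs2*, *G6pc* and *Pck1* are transcribed when insulin is low and fall after feeding. Insulin also raises the transcripts of *Srebf1* and the genes of fatty acid synthesis, and this branch and the FOXO branch are known to be separable in the liver. Arrays measure transcripts, and the pathway itself is driven mainly by phosphorylation, which these data do not measure.

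The promoters of *Igfbp1* and *Irs2* are shown here because these were the members whose transcripts differed most from mouse to mouse. The sequences are the RefSeq promoters of build GRCm38.p6, 250 bases before the transcription start, read 5′ to 3′ along the gene, at chr11:7197537-7197786 (plus strand) for *Igfbp1* and chr8:11008930-11009179 (minus strand) for *Irs2*. Capitals mark the insulin response core CAAAACA, or its reverse complement TGTTTTG, a form of the element that FOXO proteins bind.
Igfbp1: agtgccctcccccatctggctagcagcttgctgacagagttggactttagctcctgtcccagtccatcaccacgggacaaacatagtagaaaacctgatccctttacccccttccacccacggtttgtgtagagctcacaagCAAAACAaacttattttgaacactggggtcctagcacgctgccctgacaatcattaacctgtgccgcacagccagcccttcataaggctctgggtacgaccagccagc
Irs2: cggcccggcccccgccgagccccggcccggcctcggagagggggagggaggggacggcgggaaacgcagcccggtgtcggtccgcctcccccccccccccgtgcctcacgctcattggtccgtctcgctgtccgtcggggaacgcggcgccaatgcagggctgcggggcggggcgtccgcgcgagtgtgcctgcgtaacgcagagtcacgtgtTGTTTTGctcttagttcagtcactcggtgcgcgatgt
Counted from the transcription start, the core began at position -108 in *Igfbp1* and at position -37 in *Irs2*. CAAAACA was searched on both strands from 250 bases before to 50 bases after the start, and so was the canonical FOXO element GTAAACA (reverse complement TGTTTAC). The core was found in 6.28% of the 32851 RefSeq promoters searched, GTAAACA in 3.65% and either of them in 9.63%. Promoters were listed for 8 of the 10 members, 13 in all, and not for *Insr* and *Trib1*. *Irs1*, *Irs2* and *Igfbp1* held the core, *Irs1* at 2 positions. A GTAAACA element was found in 1 of the promoters of *Akt1*, and neither element was found in those of *Pik3r1*, *Akt2*, *Foxo1* and *Foxo3*. These matches describe the sequence alone and say nothing about binding in these livers.

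Levels are given as log2 signal after each array was scaled to its 75th percentile, so that 0 is the level of a probe at that percentile, and levels are not compared between genes because probes differ in efficiency. The arrays were alike: the correlation over probes was between 0.987 and 0.993 for pairs of different genotype, between 0.989 and 0.996 within WT and between 0.991 and 0.994 within KO. *Agpat3* itself, the check of the labels, was lower in every KO liver, with a log2 fold change of -6.12 ± 0.14 (SE, n = 4 against 4, limma adjusted p = 4.46e-07). All 8 hepatocyte markers, among them *Alb* and *Ttr*, were well above background on all arrays, and their summed level was between 12.05 and 12.19 in WT and between 12.09 and 12.15 in KO. Of 5 adipocyte markers *Lep* was well above background on all 8 arrays, *Cfd* on 4 and *Adipoq*, *Plin1* and *Retn* on none, and 0 were called. Of 10 acinar markers 7 were well above background on all 8 arrays and *Pnlip*, *Cpa1* and *Prss2* on none, with a summed level between 5.47 and 5.83 in WT and between 4.85 and 5.47 in KO. Of these 0 were called, and of the 7 tested 3 were higher and 4 lower in KO. *Cela1*, whose probe was the brightest of the 10 and weighs most in the sum, separated the genotypes at -0.54 ± 0.20 (limma adjusted p = 0.292). Of the 7 Kupffer cell markers 1 was called, *Marco*, at -1.22 (limma adjusted p = 0.0983). Among the 7, 2 were higher and 5 lower in KO, and those other than *Marco* lay between -0.17 (*Adgre1*) and 0.12 (*Timd4*). The summed level of the 7 overlapped, at 5.97 to 6.50 in WT and 5.70 to 6.41 in KO. Of the stellate cell markers, 0 of 8 were called. Of these 8, 7 had a log2 fold change below 0, and 2 an unadjusted p under 0.05, in opposite directions. *Lrat* was at 0.50 ± 0.17 (limma adjusted p = 0.272). *Pdgfrb* was at -0.45 ± 0.17 (limma adjusted p = 0.311) and separated the genotypes. The collagen *Col1a2* gave 2.80, 4.07, 2.88 and 2.59 for WT replicates 1 to 4, and 2.66, 2.55, 2.28 and 2.41 for KO. The summed level of the stellate markers was between 6.56 and 6.99 in WT and between 6.51 and 6.61 in KO. Of 6 lymphocyte markers 4 were tested, 0 were called and all 4 were lower in KO. The summed level of the 6 did not overlap, at 2.39 to 2.55 in WT and 2.20 to 2.35 in KO. Endothelial and cholangiocyte markers had 0 called, and their summed levels overlapped between genotypes. The part of the acinar, stellate, lymphocyte and other markers in the results was not tested. All WT arrays lay in row 1 and all KO arrays in row 2 of the same slide, so row and genotype cannot be told apart.

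All 16 member probes were well above background on all 8 arrays, so no member was lost to the filter on dim probes. Of the 10 members, 0 were called between the genotypes by limma with an adjusted p under 0.2 and a difference of more than 1.5-fold, a threshold that 1.76% of the 14065 genes tested passed (1.01% higher and 0.754% lower in KO). Of the 16 member probes 0 passed it, against 1.67% of the 29067 probes tested, and 0 had an adjusted p under 0.05, against 0.461%. *Trib1* alone had an unadjusted p under 0.05, which 14% of all genes tested reached (8.25% with KO lower), and the methods' t-test after Benjamini-Hochberg adjustment called 0 members as well. In 0 of the 10 members did the values of the WT and KO livers separate without overlap, against 9.73% of the genes tested (3.84% with KO higher and 5.89% with KO lower). The log2 fold change, KO minus WT, was above 0 for 5 members and below 0 for 5, with a median of -0.02 beside -0.03 over all genes tested. Its median size without regard to sign was 0.06 for the members and 0.11 for all genes. The 95% interval of the difference lay within 1.5-fold in either direction for 7 of the 10 members, which held for 76.2% of the genes tested, and for 12 of the 16 member probes, against 74.1% of the probes tested. The members outside this bound were *Irs2*, *Trib1* and *Igfbp1*, for which a difference over 1.5-fold lay within the interval. In whole liver, fewer cells of a type and less RNA per cell cannot be told apart.

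**Figure D1:**
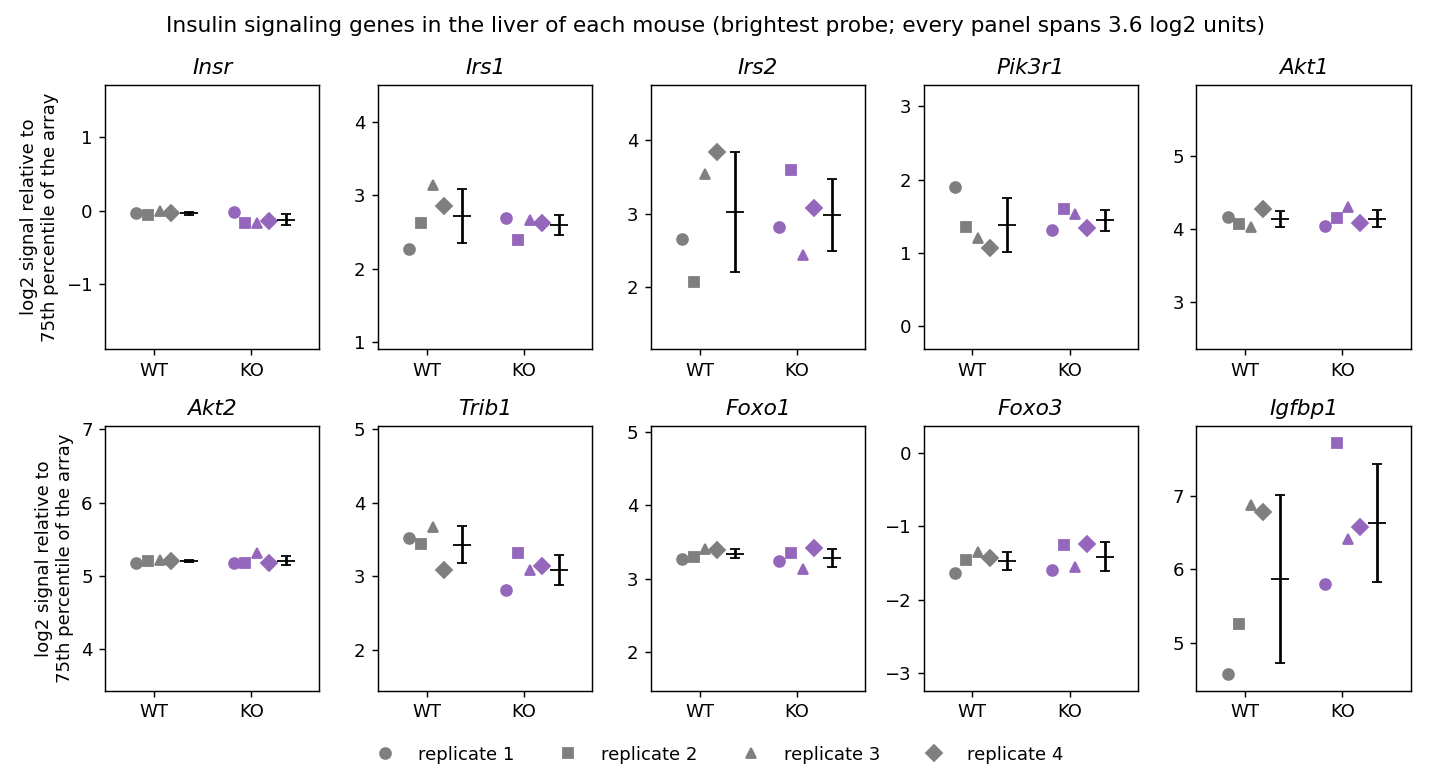
Levels of the 10 insulin signaling genes in each liver, as log2 signal of the brightest probe with the 75th percentile of each array at 0 (y axis), for 4 WT and 4 KO mice (x axis); marker shapes give the replicate number and the bars the mean ± SD of each genotype. Every panel spans the same number of log2 units, so that the spread of *Irs2* and *Igfbp1* can be seen against the tight values of *Insr* and *Akt2*, and the genotypes overlap in every panel.

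*Insr* encodes the insulin receptor, the tyrosine kinase at the head of the pathway. Its brighter probe gave -0.03, -0.06, 0.00 and -0.03 in WT replicates 1 to 4 and -0.01, -0.17, -0.16 and -0.14 in KO replicates 1 to 4. KO replicate 1 lay among the WT livers and the other KO livers lay below them. The difference was -0.09 ± 0.06 (SE), with a 95% interval from -0.23 to 0.06 and a limma adjusted p of 0.599, and an exact two-sided permutation test over the 70 assignments of 4 and 4 livers gave p = 0.114. The dimmer probe of *Insr* gave -0.19 ± 0.13 (limma adjusted p = 0.586). Without KO replicate 1 the genotypes no longer overlapped at the brighter probe, and the difference was then -0.13.

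The IRS adaptors carry the signal from the receptor to PI3K. *Irs1* was at 2.27, 2.62, 3.14 and 2.86 in the WT livers and at 2.68, 2.39, 2.66 and 2.63 in the KO livers. The KO values fell inside the WT range, whose extremes differed 1.83-fold, and the difference was -0.13 ± 0.18 (limma adjusted p = 0.801). *Irs2*, the adaptor whose transcript is itself repressed by insulin, was at 2.65, 2.06, 3.54 and 3.84 in WT and at 2.81, 3.59, 2.43 and 3.08 in KO. The highest and lowest *Irs2* values differed 3.42-fold among the WT livers and 2.23-fold among the KO livers, and all KO values lay inside the WT range. The genotype difference of *Irs2* was -0.04 ± 0.41 with an interval from -0.97 to 0.89 (limma adjusted p = 0.976). Its sign turned when some single livers were left out, with values from -0.36 without WT replicate 2 to 0.23 without WT replicate 4.

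PI3K and AKT relay the signal inside the cell. *Pik3r1*, the regulatory p85 subunit of PI3K, was at 1.90, 1.35, 1.20 and 1.07 in WT and at 1.31, 1.60, 1.53 and 1.34 in KO. WT replicate 1 was the highest of the 8 livers, and all KO values lay inside the WT range. The difference was 0.06 ± 0.18 (limma adjusted p = 0.913) and was -0.04 without WT replicate 4 and 0.24 without WT replicate 1. *Akt1* gave 4.16, 4.07, 4.02 and 4.27 in WT and 4.04, 4.15, 4.30 and 4.08 in KO, a difference of 0.01 ± 0.09 with an interval from -0.19 to 0.21 (limma adjusted p = 0.975). *Akt2*, the AKT isoform that prevails in insulin-responsive tissues, was among the steadiest transcripts, at 5.18, 5.21, 5.22 and 5.20 in WT and 5.18, 5.17, 5.31 and 5.18 in KO. Only 2.23% of the probes tested had a smaller SD within genotypes than this *Akt2* probe, which was 5.20 ± 0.02 (SD, n = 4) in WT and 5.21 ± 0.07 (SD, n = 4) in KO. Its difference was 0.01 ± 0.06, with an interval from -0.14 to 0.15 (limma adjusted p = 0.979). The other probe of *Akt1* gave -0.15 ± 0.11 (limma adjusted p = 0.616), and the other *Akt2* probes gave 0.08 and 0.03 with limma adjusted p of 0.691 and 0.903.

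*Trib1* encodes a pseudokinase of the Tribbles family, whose members have been described as partners of AKT and of the ubiquitin ligase COP1. It was the member with the lowest p. It was at 3.51, 3.44, 3.68 and 3.09 in the WT livers and at 2.81, 3.31, 3.09 and 3.13 in the KO livers. WT replicate 4 lay among the KO livers and the other WT livers lay above all of them. The log2 fold change was -0.34 ± 0.15, or 0.787-fold, with an interval from -0.68 to -0.01, an unadjusted p of 0.0471 and a limma adjusted p of 0.369, and the exact permutation test gave p = 0.0857 where 0.0286 is the smallest p the design allows. Leaving out WT replicate 4 gave -0.46 with a limma adjusted p of 0.184, still under 1.5-fold, and leaving out KO replicate 1 gave -0.25. The paralogs were at -0.16 ± 0.17 for *Trib2* (limma adjusted p = 0.733) and at -0.38 ± 0.55 for *Trib3* (limma adjusted p = 0.819), whose values ranged from 1.48 to 3.77 in WT and from 1.68 to 3.46 in KO.

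FOXO1 and FOXO3 are the transcription factors that AKT excludes from the nucleus, a control that acts on the protein. *Foxo1* was at 3.27, 3.30, 3.40 and 3.39 in WT and at 3.24, 3.35, 3.14 and 3.42 in KO, and the genotypes overlapped. The difference was -0.06 ± 0.08 with an interval from -0.24 to 0.13 (limma adjusted p = 0.816), and the other *Foxo1* probe gave -0.01 (limma adjusted p = 0.984). *Foxo3* was at -1.64, -1.46, -1.36 and -1.43 in WT and at -1.60, -1.26, -1.56 and -1.24 in KO. KO replicates 2 and 4 were the highest and KO replicates 1 and 3 lay inside the WT range. The difference was 0.06 ± 0.11 (limma adjusted p = 0.866), and the dimmer *Foxo3* probe gave 0.11 ± 0.27 with an interval from -0.51 to 0.74 (limma adjusted p = 0.896). Of the other factor of the family measured, *Foxo4*, the difference was -0.34 ± 0.32 (limma adjusted p = 0.701).

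*Igfbp1*, a secreted IGF binding protein that the liver makes when insulin is low, is the classical FOXO target among the members. It was at 4.57, 5.25, 6.87 and 6.77 in the WT livers and at 5.80, 7.72, 6.41 and 6.57 in the KO livers. WT replicates 1 and 2 were the lowest of the 8 livers and KO replicate 2 the highest, while the other 5 lay between 5.80 and 6.87 and came from both genotypes. The mean level was 5.87 ± 1.14 (SD, n = 4) in WT and 6.62 ± 0.80 (SD, n = 4) in KO. The difference of 0.76 ± 0.59, or 1.69-fold, was within the spread between mice, with an interval from -0.61 to 2.12, a limma adjusted p of 0.643 and an exact permutation p of 0.343. The extremes differed 4.93-fold among WT and 3.80-fold among KO livers, and 99.5% of the probes tested had a smaller SD within genotypes. The difference ranged from 0.32 without WT replicate 1 to 1.09 without WT replicate 3.

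**Figure D2:**
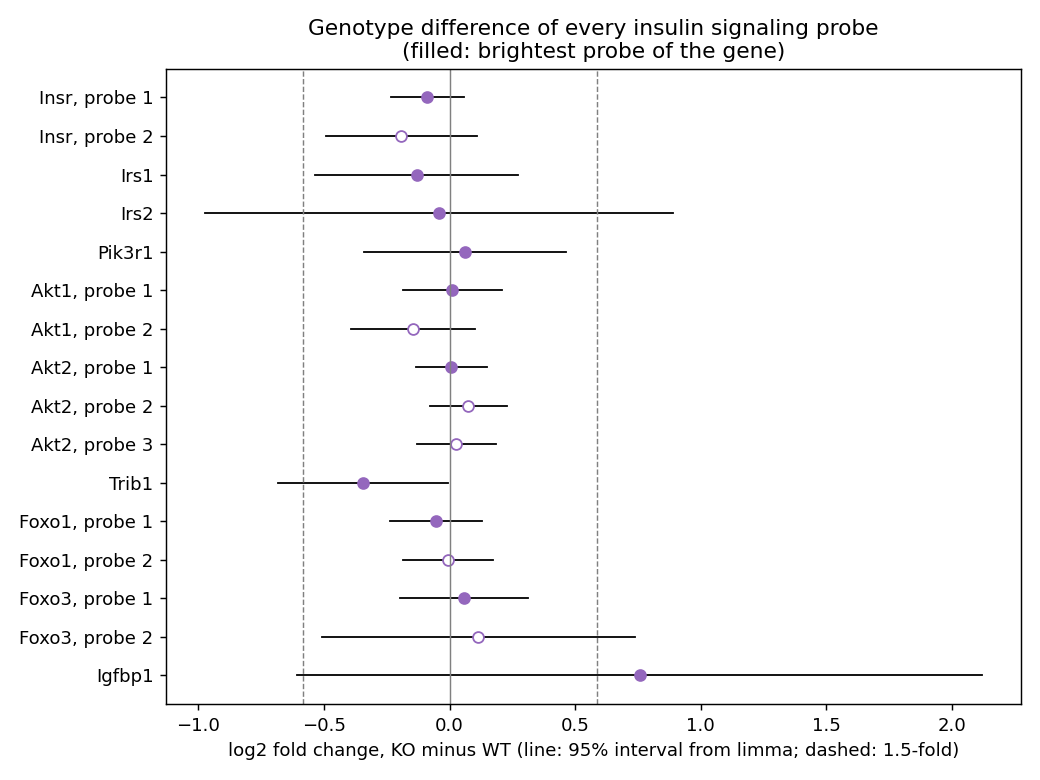
Log2 fold change, KO minus WT (x axis), of each of the 16 member probes (y axis, filled points the brightest probe of a gene), with the 95% interval from limma as a line and 1.5-fold as dashed lines. Every interval but that of *Trib1* includes 0, and those of *Igfbp1* and *Irs2* are the widest.

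The mouse-to-mouse variation of *Igfbp1* and *Irs2* ran in parallel in most livers. With the mean of each genotype taken off, *Igfbp1* deviated by -1.30, -0.62, 1.01 and 0.90 in WT replicates 1 to 4 and by -0.83, 1.1, -0.21 and -0.05 in KO replicates 1 to 4. *Irs2* deviated by -0.37, -0.96, 0.52 and 0.82 in WT and by -0.16, 0.61, -0.55 and 0.10 in KO, with the same sign as *Igfbp1* in every liver but KO replicate 4. Over the 8 arrays the deviations of the pair had r = 0.82, given as a description, since each value shares its array with the other. *Pck1*, the gluconeogenic enzyme PEPCK and another gene repressed by insulin, deviated by -0.55, -0.29, 0.26 and 0.59 in WT and by -0.29, 0.28, -0.15 and 0.17 in KO, with r = 0.93 with *Igfbp1* and r = 0.86 with *Irs2*. Among the 13557 genes compared over 8 arrays, *Pck1* ranked 16 in likeness to *Igfbp1* and 69 in likeness to *Irs2*. *G6pc*, the glucose-6-phosphatase of the same program, had r = 0.20 with *Igfbp1* and r = 0.70 with *Irs2*, and was lowest in WT replicate 2 and KO replicate 3, at 5.30 and 5.69. Among other FOXO targets, chosen after their values were seen, the correlation with *Igfbp1* was r = 0.53 for *Bcl6*, r = 0.25 for *Ppargc1a* and r = -0.06 for *Pdk4*, and with *Irs2* it was r = 0.60, r = 0.15 and r = 0.32 in the same order. Of the other members, *Irs1* had r = 0.53 with *Igfbp1* and r = 0.37 with *Irs2*, and *Trib1* had r = 0.22 and r = -0.01. The genes most like *Igfbp1* were *B930025P03Rik* (r = 0.97), *Ovch2* (r = 0.97), *Nrn1* (r = 0.96), *Kcnd1* (r = 0.96) and *Tmem140* (r = 0.95). Those most like *Irs2* were *4833420G17Rik* (r = 0.96), *Prr5l* (r = 0.96), *Prpf18* (r = 0.94), *Atg14* (r = 0.94) and *Tspan31* (r = 0.94). *Irs2* itself ranked 251 in likeness to *Igfbp1*, and *Igfbp1* ranked 126 in likeness to *Irs2*.

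**Figure D3:**
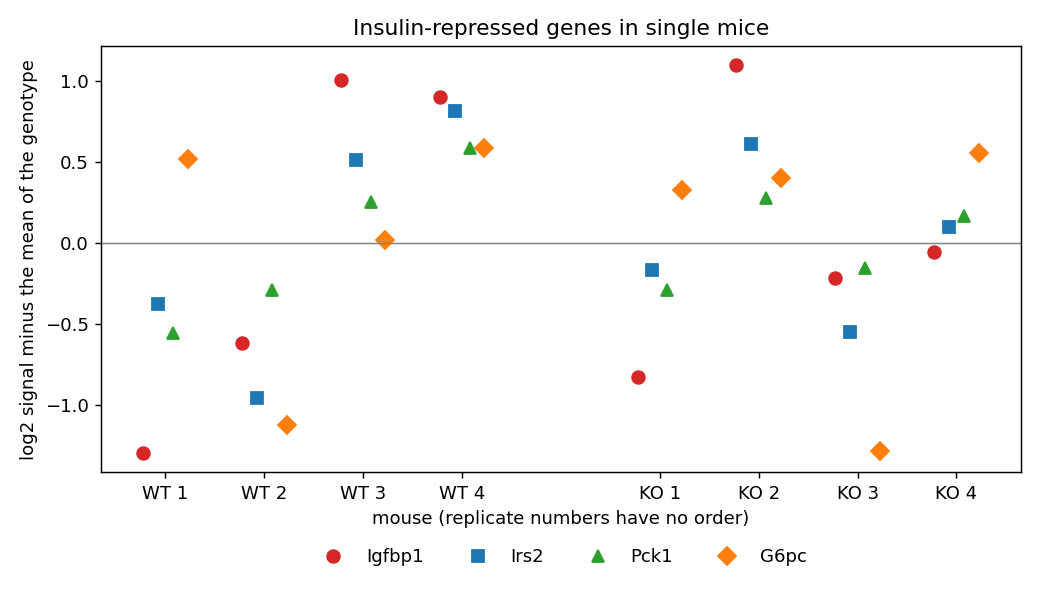
Deviation of *Igfbp1*, *Irs2*, *Pck1* and *G6pc* from the mean of their genotype, in log2 units (y axis), in each of the 8 livers (x axis). *Igfbp1*, *Irs2* and *Pck1* lie on the same side of 0 in every liver but KO replicate 4, where *Igfbp1* is at -0.05, while *G6pc* lies on the opposite side in WT replicate 1 and KO replicate 1 and is at its lowest, -1.28, in KO replicate 3.

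The rest of the pathway was taken by lists of genes in the order of signaling. Beside each list stand the shares over all genes tested: 1.76% called, 14% at an unadjusted p under 0.05, and 9.73% without overlap between genotypes. With 1.76% called, 0 calls in lists of this size lie near that share. At the receptor, 0 of the 25 genes tested, adaptors and inhibitors included, were called by limma or by the methods' t-test. The median log2 fold change was -0.07, with values from -0.98 to 0.39, and 2 genes had an unadjusted p under 0.05. These were the adaptor *Sh2b1* at -0.17 ± 0.06 (limma adjusted p = 0.271) and the ubiquitin ligase *Cbl* at -0.19 ± 0.07 (limma adjusted p = 0.305). The KO livers of both all lay below the WT livers, as in 5.89% of all genes tested. For *Sh2b1* the WT livers were at 3.22, 3.26, 3.14 and 3.26 and the KO livers at 3.07, 3.02, 3.05 and 3.03. *Igf1r*, the related IGF1 receptor, was at 0.01 ± 0.11 (limma adjusted p = 0.976).

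Among the PI3K and AKT genes 0 of 21 were called by either test, 3 had an unadjusted p under 0.05, and 18 of the 21 log2 fold changes were below 0, with a median of -0.17 beside -0.03 over all genes tested. *Pdpk1*, the kinase PDK1 that activates AKT, was at 3.13, 2.98, 3.13 and 3.12 in WT and at 2.84, 2.84, 2.95 and 2.76 in KO. Its values did not overlap, as in 9.73% of all genes tested, and its log2 fold change was -0.24 ± 0.07, or 0.846-fold, with a limma adjusted p of 0.206, so that it met neither threshold of a call. The regulatory subunits related to *Pik3r1* were at -0.37 ± 0.11 for *Pik3r3* (limma adjusted p = 0.229) and -0.15 ± 0.10 for *Pik3r2* (limma adjusted p = 0.566). In the list of mTOR and GSK3 genes, 0 of 21 were called by either test and 1 had an unadjusted p under 0.05. Below 0 were 14 of the 21 log2 fold changes, with a median of -0.05. Of the FOXO factors and their partners 0 of 8 were called by either test and 2 had an unadjusted p under 0.05. Here 7 of the 8 log2 fold changes were below 0, with a median of -0.16.

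The target genes were listed by branch, those of FOXO and those that insulin induces. Of 15 genes that FOXO raises and insulin lowers, 3 of them members, 0 were called by limma or the methods' t-test. An unadjusted p under 0.05 was found for 3. The log2 fold change was above 0 for 8 and below 0 for 7, with a median of 0.09 and values from -0.43 to 0.76. *G6pc* was at 6.94, 5.30, 6.44 and 7.02 in WT and at 7.30, 7.37, 5.69 and 7.52 in KO, a difference of 0.54 ± 0.50 (limma adjusted p = 0.697). *Pck1* was at 7.24, 7.50, 8.05 and 8.38 in WT and at 7.49, 8.06, 7.63 and 7.95 in KO, a difference of -0.01 ± 0.25 with an interval from -0.59 to 0.57 (limma adjusted p = 0.991). Both overlapped between the genotypes. Chosen after their values were seen, *Ppargc1a*, the coactivator of gluconeogenesis, was at 0.60 ± 0.19 (limma adjusted p = 0.237) and *Pdk4*, which restrains pyruvate oxidation, at 0.73 ± 0.24 (limma adjusted p = 0.259). Of the 3 genes of this list at an unadjusted p under 0.05, only these 2 differed by more than 1.5-fold. Without WT replicate 4, *Pdk4* and *Ppargc1a*, the latter also in the list of FOXO partners, passed the threshold, and without KO replicate 4 *Ppargc1a* did.

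Of 10 genes that insulin raises, 7 were called higher in KO, against 1.01% of all genes tested. In 8 the KO livers all lay above the WT livers, against 3.84% of all genes tested. All 10 log2 fold changes were above 0. *Pnpla3*, well above background on 1 of the 4 WT arrays, passed the filter on dim probes through the KO livers, and 6 genes were called when the filter asked this of all 8 arrays. The called genes were *Srebf1*, the SREBP1 transcription factor, *Fasn*, *Acly*, *Scd1*, *Gpam*, *Thrsp* and *Pnpla3*, all of fatty acid and triglyceride metabolism. Apart from *Pnpla3*, they rose from 1.71-fold for *Srebf1* to 3.99-fold for *Thrsp*. The methods' t-test called 6 of them, without *Srebf1*. *Srebf1* also missed the threshold when any 1 of the 8 livers was left out, and *Scd1* missed it without WT replicate 2 and without WT replicate 3, when 5 genes were called. *Fasn*, fatty acid synthase, was at 6.62, 7.20, 7.01 and 6.95 in WT and at 8.49, 8.57, 8.73 and 8.73 in KO, a rise of 3.22-fold. The study addresses lipogenic transcription in these mice, so that this list is not independent of its question. *Acaca*, acetyl-CoA carboxylase, separated the genotypes at 1.48-fold and missed the fold threshold (limma adjusted p = 0.107), and *Elovl6*, named after its values were seen, was at 0.86 ± 0.27 (limma adjusted p = 0.237).

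In the IGF axis 0 of 10 genes were called by either test, 1 had an unadjusted p under 0.05, and the median was -0.07. *Igf1*, the growth factor that IGFBP1 binds, was at 7.58, 7.48, 7.53 and 7.43 in WT and at 7.27, 7.39, 7.24 and 7.29 in KO. The genotypes did not overlap, as in 5.89% of all genes tested with KO lower. The log2 fold change was -0.21 ± 0.07 (limma adjusted p = 0.248), beneath the fold threshold. *Igfbp2*, a further binding protein of the liver, was at 0.21 ± 0.25 (limma adjusted p = 0.772). *Irs4*, *Pik3cg*, *Foxo6* and *Igf2* were not tested, since their probes were not well above background on all arrays of either genotype.

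**Figure D4:**
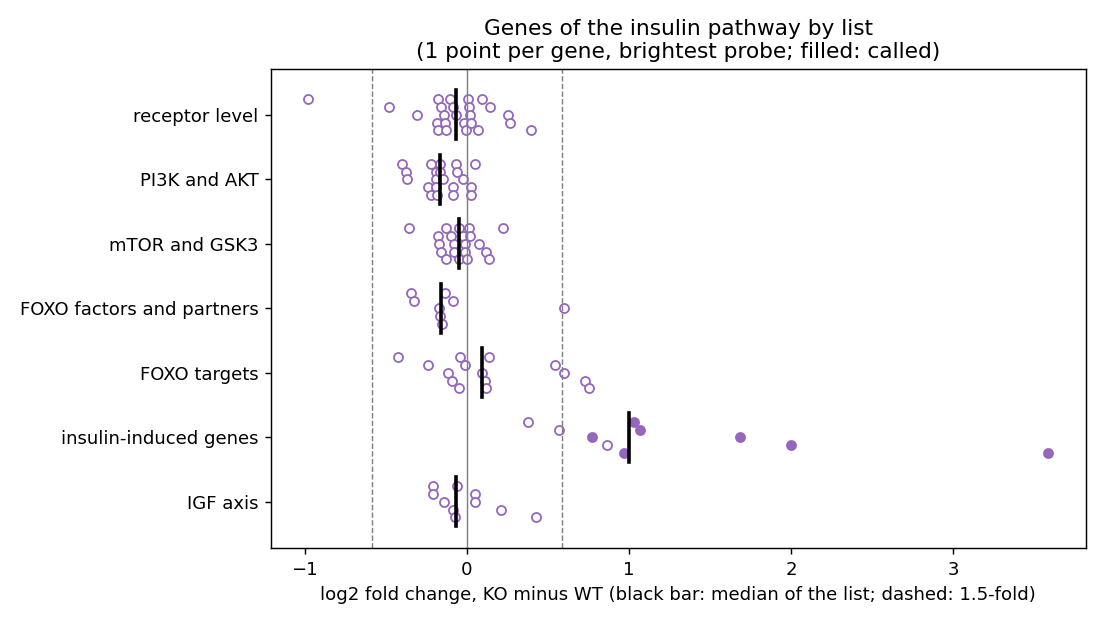
Log2 fold change, KO minus WT (x axis), of the genes of each pathway list (y axis), 1 point per gene at its brightest probe, with called genes filled, the median of each list as a black bar and 1.5-fold as dashed lines. The 7 filled points all lie in the list of insulin-induced genes. The lists from the receptor to FOXO and its targets hold none. Over all genes tested 1.76% were called, so 0 in lists of this size lies near that share.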

How the data were processed

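One-color Agilent arrays of liver RNA were made for 8 mice. The authors deposited scanner output of Feature Extraction (version 10.7.1.1), whose processed signal is a fluorescence intensity per spot with the background taken off, and a table of log2 values. For nearly all probes the deposited log2 values equal those used here but for a shift of 0.003 to 0.008 per array. The deposited files also hold flags, used as filters. The files hold no gene symbols, and 32994 of 56605 probes were named through RefSeq accessions of GRCm38.p6. The scanner output names another mouse build, and no coordinates were taken from it.

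Groups follow the genotype that the labels give, and the labels describe separate mice. Without control and outlier spots, log2 processed signals were averaged per probe and scaled to the 75th percentile over probes. A probe was kept if it was flagged well above background on the 4 arrays of either genotype, which held for 29067. The 75th percentile was between 261 and 309 intensity units and the median local background between 27 and 32, no spot was saturated, and the number of arrays limits the precision. limma 3.58.1 (lmFit and eBayes, R 4.3.3) gave two-sided tests of genotype, with p-values adjusted by Benjamini-Hochberg across these probes. A call needed an adjusted p under 0.2 and more than a 1.5-fold difference. A gene stands for its brightest probe, and probes of related genes can share RNA. An exact two-sided permutation test over the 70 assignments of livers was added for single genes. Intervals are 95% intervals of the limma fit.

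The members and the gene lists were chosen with earlier results of these data known. Named are all members, every list gene that was called or did not overlap between genotypes, a set of paralogs and targets (some of which are not reported here), and the 5 genes most like *Igfbp1* and *Irs2* by r of deviations from the genotype means. The limma steps were tested on simulated data. Alternatives were background correction, scaling, filters, spread model, threshold, test, probe choice, the replicate number as a block and each array left out.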

Additional observations from a re-analysis of the deposited data

Results flagged for a closer look

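In 42 genes with 4 livers per genotype, 84 groups were examined for a liver whose gap to the nearest other exceeded Dixon's 95% critical share of the range, and 6 groups had such a liver, where chance flags about 1 in 20. Among the members, *Insr* in KO replicate 1 was at -0.0127, apart from -0.17 to -0.14 in the other KO livers, and *Akt2* in KO replicate 3 was at 5.31, apart from 5.17 to 5.18. *G6pc* in KO replicate 3 was at 5.69, apart from 7.30 to 7.52. *Pdk4* in WT replicate 4 was at -0.70, apart from -1.43 to -1.35. *Bcl6*, a repressor that FOXO raises, was at 5.48 in KO replicate 4, apart from 3.27 to 3.57. *Pdpk1* in WT replicate 2 was at 2.98, apart from 3.12 to 3.13. Values are levels on the log2 scale used above.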

How the results depend on the processing

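Under all 22 alternatives the count of members called stayed at 0 in each direction, and the count of other pathway genes stayed at 0 lower in KO and between 5 and 10 higher in KO, against 7. Of 180 log2 fold changes of members under alternatives, 162 kept their sign and their side of the thresholds and 18, in 6 members, had the opposite sign, the largest of these 0.23 in size. *Insr*, *Foxo1*, *Igfbp1* and *Trib1* kept their sign under every alternative run. With normexp *Akt1* was at -0.0244, *Akt2* at -0.0150 and *Foxo3* at -0.0124, with the array median *Akt1* was at -0.0278 and *Akt2* at -0.0319, and with the mean of its probes *Akt1* was at -0.0681. With each array left out in turn the ranges were -0.13 to -0.07 for *Insr*, -0.28 to 0.00706 for *Irs1*, -0.36 to 0.23 for *Irs2*, -0.0418 to 0.24 for *Pik3r1*, -0.0428 to 0.0554 for *Akt1*, -0.0270 to 0.0185 for *Akt2*, -0.10 to -0.01 for *Foxo1*, -0.00102 to 0.12 for *Foxo3*, 0.32 to 1.09 for *Igfbp1* and -0.46 to -0.25 for *Trib1*. The cause of these changes of sign was not tested.

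Members whose genotypes did not overlap went from 0 to 1 with the array median in place of the 75th percentile (*Insr*), and ranged from 0 to 1 with an array left out, 1 without WT replicate 4 (*Trib1*), without KO replicate 1 (*Insr*) and without KO replicate 3 (*Akt2*). Over all probes 484 were called, 252 without the filter on dim probes, 248 with normexp, 269 with the methods' t-test, 257 without WT replicate 3, 291 without KO replicate 2 and 306 without WT replicate 2. Replicate numbers were not taken as pairs in the main fit, and whether they mark a shared batch was not tested. The deviations of same-numbered livers correlated at 0.369, -0.114, 0.094 and 0.341. WT replicates 1, 3 and 4 correlated best with the KO liver of the same number, and WT replicate 2 with KO replicate 3 (0.295). With the replicate block 592 probes, 8 other pathway genes and 0 members were called.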
